A study of Mus musculus with 2 samples.

Results

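The genes described here encode the enzymes that write and erase methyl marks on histones and those that remove acetyl marks. They were taken by name from the array annotation: the KDM, KMT2, KMT5, SETD, PRMT, NSD, HDAC and SIRT families and Jmjd1c, without 2 genes that the selection left out. This gave 62 genes with 154 probes, of 19057 genes with a named probe and 45281 probes in all. Of the 62, 27 are methyltransferases or related SET domain proteins, 18 are demethylases and 17 are deacetylases. Hdac1, Setdb2 and Setd9 were not analysed here, and 1 probe shared between Kdm6b and another gene was left out.

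The cells were leukaemic stem cells of mouse bone marrow that carried MLL-AF9, an oncogenic fusion of the H3K4 methyltransferase MLL with AF9. A sample labelled PirBTM MLL-AF9 was compared with a sample labelled wild type MLL-AF9, to ask how expression differs between the genotypes. Each is given as 9 weeks old and of C57BL/6J strain, and both are labelled as carrying the fusion. What PirBTM changes, how the fusion was introduced, how many animals gave RNA and how the cells were sorted are not stated in the labels.

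Total RNA of each sample was hybridised to 1 Illumina bead array, which reports for each probe a mean bead intensity and a p-value for detection against negative controls. With 1 array per group there was no spread between replicates and no test of the groups, and every value below compares these 2 samples only, which also lay at different positions of 1 chip, so that position and genotype cannot be separated. Ratios are log2 differences of normalized intensity, PirBTM minus wild type, read from the brightest probe of a gene. A probe counted as above background where its detection p-value was under 0.01. The error of a ratio was taken from 2944 genes in which another probe was also above background on each array: the disagreement between the probes gave a measuring SD of 0.30 for a single ratio, 0.33 among the dimmest pairs and 0.24 among the brightest. It leaves out differences between animals and between RNA preparations. Precision is limited by the number of arrays.

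Histone lysine methyltransferases, most of them built on a SET domain, mark genes as active or silent according to the lysine they modify: H3K4 and H3K36 methylation accompany transcription, while H3K9 and H4K20 methylation accompany compaction. Protein arginine methyltransferases (PRMTs) methylate histones and many splicing and RNA-binding proteins. Demethylases of the flavin-dependent and JmjC types take methyl groups off, and zinc-dependent HDACs and NAD-dependent sirtuins take acetyl groups off lysines. In MLL-fusion leukaemia, several of these enzymes, among them Kdm1a, Prmt1, Prmt5 and Kdm4c, have been studied as dependencies or drug targets.

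The promoters of the 6 PRMT genes measured above background are shown because this family held the highest ratio of all members and 5 genes that lay together below 0. Each window is 300 bases, from 250 before to 50 after the transcription start, 5′ to 3′, from RefSeq on build GRCm38.p6. Capitals mark letters that match 1 of 6 searched motifs on either strand.
Prmt2, chr10:76237816-76238115, minus strand: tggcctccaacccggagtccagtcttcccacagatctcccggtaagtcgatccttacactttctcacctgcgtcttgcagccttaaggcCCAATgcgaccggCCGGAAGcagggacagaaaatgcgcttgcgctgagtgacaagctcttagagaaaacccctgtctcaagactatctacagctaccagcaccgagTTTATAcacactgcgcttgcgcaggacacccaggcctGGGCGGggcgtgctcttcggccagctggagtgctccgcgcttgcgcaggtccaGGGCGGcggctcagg
Prmt1, chr7:44986371-44986670, minus strand: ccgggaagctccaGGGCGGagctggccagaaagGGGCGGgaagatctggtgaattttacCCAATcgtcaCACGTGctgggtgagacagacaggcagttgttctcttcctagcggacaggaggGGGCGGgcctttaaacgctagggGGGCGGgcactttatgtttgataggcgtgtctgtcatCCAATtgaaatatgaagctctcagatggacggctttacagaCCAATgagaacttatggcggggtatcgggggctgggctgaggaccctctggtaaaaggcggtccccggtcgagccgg
Prmt3, chr7:49778108-49778407, plus strand: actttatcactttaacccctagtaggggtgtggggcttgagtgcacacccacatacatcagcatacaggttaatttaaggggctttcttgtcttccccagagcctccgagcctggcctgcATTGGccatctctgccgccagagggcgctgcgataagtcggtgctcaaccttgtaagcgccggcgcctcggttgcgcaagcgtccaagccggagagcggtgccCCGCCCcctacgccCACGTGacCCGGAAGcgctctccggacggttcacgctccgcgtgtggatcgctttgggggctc
Prmt5, chr14:54517421-54517720, minus strand: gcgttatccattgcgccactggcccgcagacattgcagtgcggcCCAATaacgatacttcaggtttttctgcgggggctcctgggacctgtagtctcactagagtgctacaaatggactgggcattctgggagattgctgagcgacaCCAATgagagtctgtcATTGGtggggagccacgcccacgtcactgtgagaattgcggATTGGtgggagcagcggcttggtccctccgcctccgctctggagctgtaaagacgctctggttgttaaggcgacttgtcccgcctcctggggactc
Prmt6, chr3:110250950-110251249, minus strand: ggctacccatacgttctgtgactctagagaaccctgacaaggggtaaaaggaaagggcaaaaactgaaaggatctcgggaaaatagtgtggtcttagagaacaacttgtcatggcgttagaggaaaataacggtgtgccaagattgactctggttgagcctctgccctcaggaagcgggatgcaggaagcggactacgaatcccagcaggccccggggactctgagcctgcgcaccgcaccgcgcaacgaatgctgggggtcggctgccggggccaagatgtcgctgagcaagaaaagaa
Prmt7, chr8:106210804-106211103, plus strand: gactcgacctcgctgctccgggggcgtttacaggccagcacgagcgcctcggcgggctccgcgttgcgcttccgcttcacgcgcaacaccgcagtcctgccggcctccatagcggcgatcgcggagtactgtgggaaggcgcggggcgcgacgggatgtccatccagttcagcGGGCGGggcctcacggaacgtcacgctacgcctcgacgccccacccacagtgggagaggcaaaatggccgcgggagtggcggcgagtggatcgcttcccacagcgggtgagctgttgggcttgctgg

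The searched motifs were the E-box CACGTG, an ETS motif CCGGAAG, the GC box GGGCGG, the CCAAT box, the TATA box TATAAA and the CRE TGACGTCA, and matches were allowed to overlap. The Prmt2 window held 2 GC boxes, 1 ETS match, 1 CCAAT and 1 TATAAA. Among the windows of the genes that were lower, Prmt1 and Prmt3 each had 1 E-box, Prmt1 had 4 GC boxes and 3 CCAAT matches, Prmt3 also had 1 match each to the ETS motif, GC box and CCAAT, and Prmt5 had 4 CCAAT matches. None of these letters were found in the Prmt6 window, and 1 GC box was found in that of Prmt7. Of 49 members with a window in the RefSeq table, 63.3% held a GC box, 20.4% the ETS motif, 10.2% the E-box and 6.12% TATAAA, against 35.7%, 8.86%, 7.15% and 13.6% of all 32851 windows. CCAAT was in 44.9% of the members' windows and 37.4% of all, and the CRE in 2.04% and 1.79%. The members' windows had a median of 20 CpG dinucleotides and all windows a median of 7. A match is a description of the letters and does not show a bound site.

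Most of these enzymes were within 2-fold between the samples, 49 of the 56 that could be measured. By the brightest probe, 54 of the 62 genes were above background on both arrays, 2 (Setd4 and Hdac6) on the wild-type array only and 6 on neither. A second Setd4 probe was above background on both arrays, which makes 55 by any probe. The 6 were Hdac9, Hdac11, Jmjd1c, Kdm4d, Prmt8 and Prmt9, of which Prmt8 is known as a brain enzyme. Among the other 56, 2 were at least 2-fold higher in PirBTM, where 12.8% of all 9432 genes above background on an array were, and 4 were at least 2-fold lower, where 9.67% of all genes were. Higher were Prmt2 and Kdm6b, and lower were Setd4, Hdac8, Kdm4a and Sirt5. With cyclic loess 3 were higher and 4 lower, beside 16.6% and 5.33% of all genes. With median scaling 2 were higher and 9 lower, beside 13.3% and 11.2%. Without background correction 1 was higher and 0 lower, beside 8.46% and 3.93%, and the authors' deposited values gave 2 and 0, beside 8.49% and 4.12%. Among genes above background on both arrays, 2 of 54 members were higher and 3 lower, beside 9.77% and 9.86%. Above 0 were 18 of the 56, and 42.4% of all genes. The middle 50% of the members' ratios spanned 0.87 on the log2 scale and that of all genes 1.12.

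The zero of the ratio scale depends on normalization, so levels of change are also given relative to all genes. The median log2 ratio of the members was -0.35 and that of all genes above background on an array was -0.15. With cyclic loess in place of quantile normalization these medians became -0.13 and 0.10, so the members stayed lower than all genes. Of the 56 members, 34 (60.7%) lay under the -0.15 median of all genes, Kdm5a (-0.21) and Sirt7 (-0.17) among them. Kdm5a and Sirt7 lay above the -0.22 of genes above background on both arrays. The median of the methyltransferases was -0.08, that of the demethylases -0.29 and that of the deacetylases -0.42. All genes also shifted with brightness: the median ratio was -0.31 in the dimmest of 5 equal groups of genes detected on both arrays and between -0.16 and -0.23 in the brighter groups. With cyclic loess it was -0.03 in the dimmest group.

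**Figure D1:**
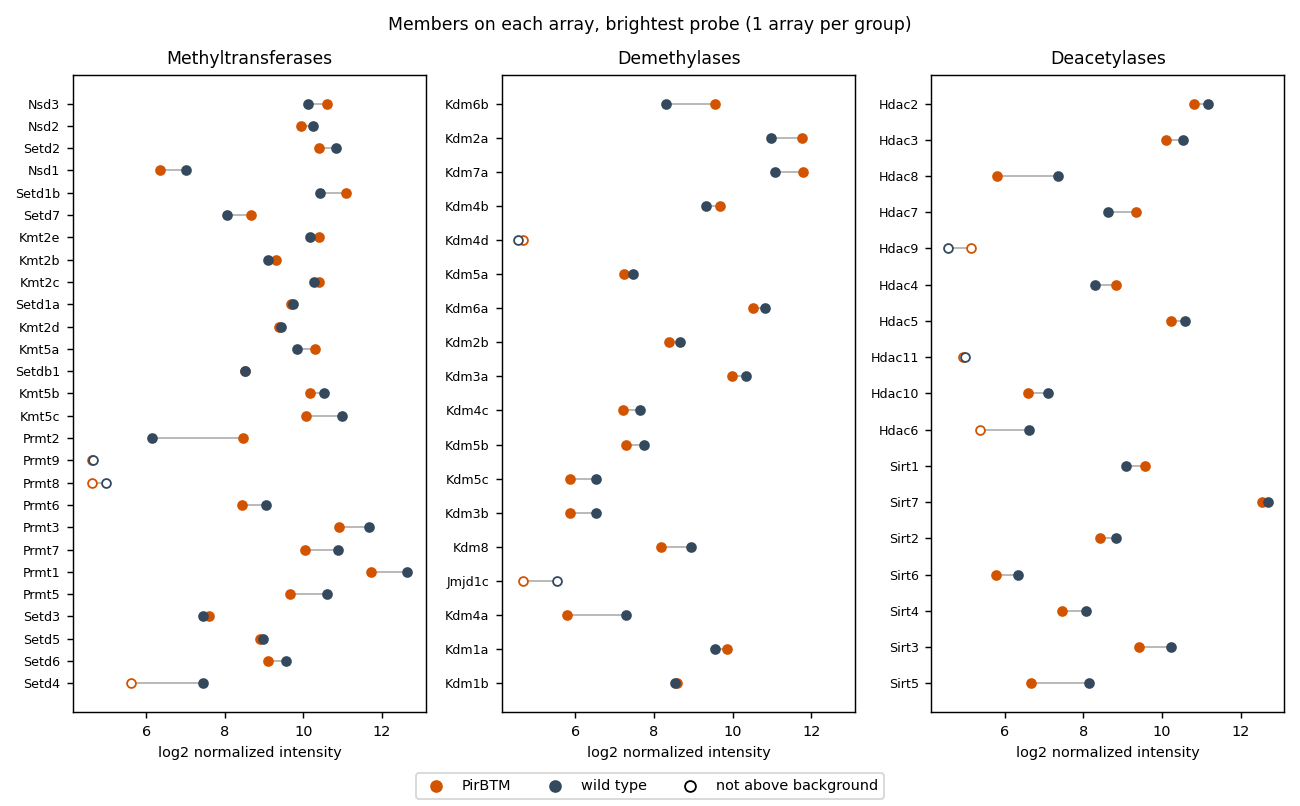
Log2 normalized intensity of the brightest probe of each of the 62 members on the PirBTM array (orange) and the wild-type array (dark blue), by class and role; open points were not above background. Most pairs of points lie close together, and Prmt2, Hdac8, Kdm4a, Sirt5, Setd4 and Kdm6b show the widest gaps among genes above background on both arrays or on the wild-type array only, together with Hdac6, whose PirBTM value was not above background.

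Summed markers of other marrow cells were brighter on the PirBTM array and most markers of MLL-AF9 leukaemic stem cells were dimmer there. Sums of linear normalized intensity were taken over all genes of each list with a named probe, also those not above background. That of the macrophage list was 55097 on PirBTM and 6322 on wild type. Of its 9 genes with a named probe, 8 and 7 were above background. The erythroid list summed to 37072 and 2314 (11 and 4 of 12), the B cell list to 14346 and 1842 (7 and 1 of 8), and the T and NK cell list to 6332 and 2189 (7 and 2 of 8). Late neutrophil genes summed to 258700 and 137800 (9 and 8 of 10), platelet genes to 3575 and 664.0 (7 and 5 of 7), and stromal and endothelial genes to 23388 and 1104 (6 and 3 of 8). These sums rest on a few bright genes in places: 5 of 9 late neutrophil genes were under 2-fold, S100a8 among them at a ratio of -0.16, and 3 of 6 stromal and endothelial genes were not shown to pass 2-fold, Pecam1 among them at 0.25. On the wild-type array Cd3e, Ms4a1, Klf1, Gata1 and Col1a1 were not above background. Other genes of the same lists were, by the counts above. Among them were Nkg7 (log2 intensity 10.92), Cd79b (10.68), Tfrc (10.73), Slc4a1 (7.43) and Cxcl12 (8.38). Of 12 leukaemic stem cell markers, 10 were at least 2-fold lower in PirBTM, Hoxa9 among them at 25.6-fold, and their sum was 6679 against 21878. Hoxa5, Hoxa10, Eya1 and Cd34 were not above background on PirBTM, so the labelled cell type had its defining markers on wild type more than on PirBTM. Kit had a ratio of -0.71 and Fcgr3 of 0.04. In bulk RNA, fewer cells of a type and less RNA per cell cannot be told apart, and the part of these cell types in the ratios of the chromatin enzymes was not tested.

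Among the arginine methyltransferases with a Prmt symbol, Prmt2 was the highest of all members and the other 5 measured genes were lower in PirBTM by similar amounts. Carm1, an arginine methyltransferase outside the naming pattern, was not among these 5 and had a ratio of 0.59. Prmt2, a PRMT of weak activity known as a coactivator of nuclear receptors, had a log2 intensity of 8.47 on PirBTM and 6.16 on wild type, a 4.97-fold higher signal. Its second probe read 8.27 and 6.36, a ratio of 1.91 beside 2.31. Both probes had the same direction. On wild type both lay near the limit of detection, where the dimmest detected probe read 5.95, so the size of the fold is uncertain. The ratio was 1.28 without background correction and 1.26 in the authors' deposited values. Among genes detected on both arrays, 2.84% had a ratio at least as high.

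Prmt1, which places most of the asymmetric dimethylarginine in cells, read 11.72 on PirBTM and 12.63 on wild type, 1.88-fold lower, from the 1 probe above background. Prmt5, the main symmetric dimethylating enzyme, read 9.65 and 10.59, 1.93-fold lower, and its other probes were 2.20-fold and 2.75-fold lower. Prmt7, which makes monomethylarginine, read 10.04 and 10.87, a ratio of -0.84, and its 4 probes gave ratios from -0.98 to -0.78. As reported, all 3 Prmt5 and all 4 Prmt7 probes lay below 0 by more than 2 measuring SDs. With cyclic loess the dimmest Prmt7 probe was at -0.49, within 2 measuring SDs of 0. Prmt3, a cytosolic enzyme that methylates a ribosomal protein, had a ratio of -0.76, and Prmt6, a nuclear enzyme acting on histone H3, of -0.62, with 4 probes from -0.93 to -0.44. These 5 ratios were each below 0 in all 10 processing alternatives, ranging from -1.27 to -0.39. Alternatives that change only the detection filter could not move them, and those that use other probes could not move Prmt1. None of the 5 genes reached 2-fold by its brightest probe as reported, but with median scaling Prmt1 (-1.27), Prmt5 (-1.11), Prmt3 (-1.05) and Prmt7 (-1.04) did. Among genes detected on both arrays, between 11.2% and 25.2% had a ratio as low as these.

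The partners of Prmt5 all had ratios below 0, though Riok1 was above it with cyclic loess. Of 4 measured genes 1 was at least 2-fold lower, beside 9.67% of all genes. This was Coprs, which recruits Prmt5 to histones, at 3.46-fold lower. Clns1a, an adaptor for splicing proteins, had a ratio of -0.61, Wdr77, the obligate partner in the methylosome, of -0.38, and Riok1, an alternative adaptor, of -0.20. With cyclic loess Wdr77 was at -0.10 and Riok1 at 0.04, both within the measuring SD of 0. The median of the list was -0.50, against -0.15 for all genes. Carm1, another arginine methyltransferase, had a ratio of 0.59.

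**Figure D2:**
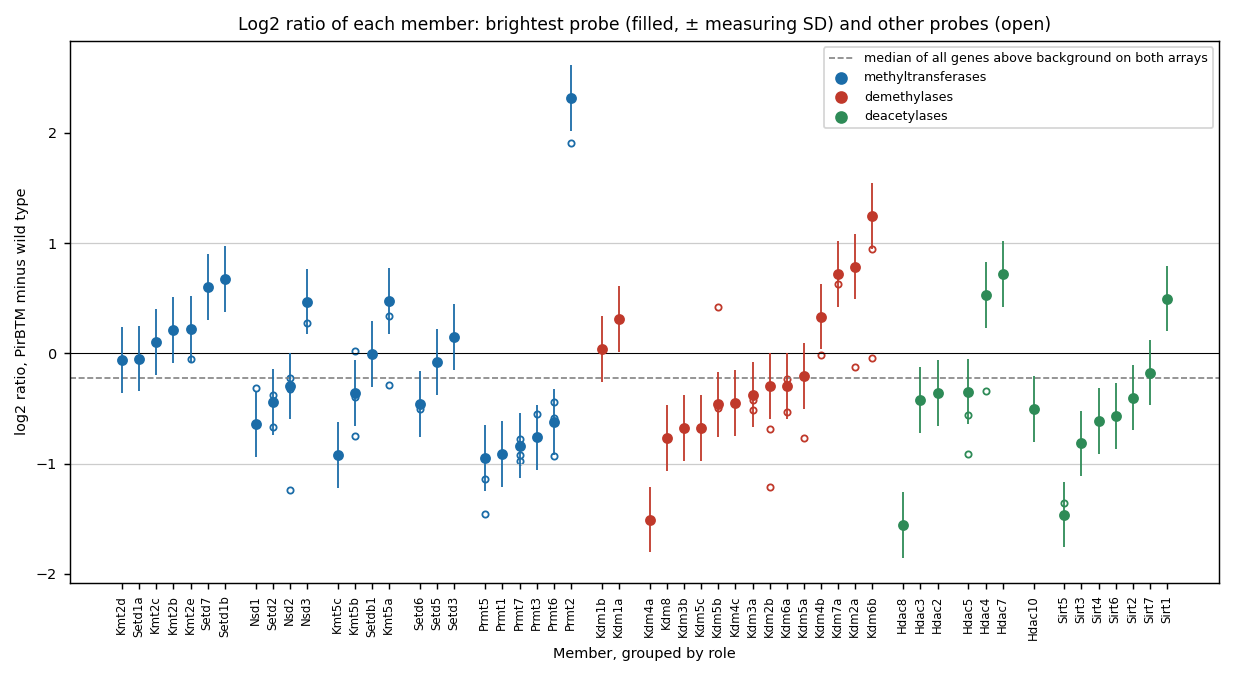
Log2 ratio (PirBTM minus wild type) of each member above background on both arrays, grouped by role, with the brightest probe filled, its bar the measuring SD of 0.30, and other probes above background on both arrays open. Prmt2 (2.31) and Kdm6b (1.25) stand above the rest, and Prmt5, Prmt1, Prmt7, Prmt3 and Prmt6 lie between -0.95 and -0.62.

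The genes listed here as H3K4 methyltransferases lay together on the higher side. The list, Kmt2e included, was not set by measured activity on H3K4. All 7 were above the median of all genes, with a median ratio of 0.21. At least 2-fold higher or lower were 0, beside 12.8% and 9.67% of all genes. Under the 6 ways of normalizing and background correction compared, all 7 stayed above the median of all genes, by a group median of 0.23 to 0.37. The highest was Setd1b, a catalytic subunit of a SET1 complex, with 11.09 on PirBTM and 10.42 on wild type, a ratio of 0.68. Its paralogue Setd1a had a ratio of -0.05. Setd7, which methylates histone H3 and also non-histone proteins, had a ratio of 0.60 and the lowest was Kmt2d, an enhancer H3K4 monomethylase, with 9.37 and 9.43, a ratio of -0.06. Kmt2c, Kmt2b and Kmt2e, with ratios of 0.11, 0.21 and 0.22, differed from 0 by less than the measuring SD. Setd1a and Kmt2d changed sign with cyclic loess, to 0.19 and 0.18, and Kmt2c with median scaling, to -0.08.

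Listed subunits of the H3K4 methylating complexes, not all of them shared between the complexes, went both ways around the median of all genes. Of 10 measured genes 6 were below it. At least 2-fold higher or lower were 0, beside 12.8% and 9.67% of all genes. Rbbp5 and Dpy30, core subunits, had ratios of -0.91 and -0.84, while Psip1, a chromatin tether of MLL, and Men1, menin, had 0.73 and 0.30. Ash2l and Wdr5, the other core subunits, had -0.49 and -0.21, so the core subunits all lay below the median of all genes.

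H3K36 methyltransferases went both ways. Nsd3 read 10.60 on PirBTM and 10.13 on wild type, a ratio of 0.47, with 0.28 for its second probe. Nsd1 had a ratio of -0.64 and read 6.36 on PirBTM, near background. Setd2, which places most H3K36 trimethylation and is a tumour suppressor in leukaemia, had a ratio of -0.44 and Nsd2 of -0.30, each with every probe above background on both arrays below 0. Nsd3 and Nsd1 were the highest and lowest of 3 Nsd genes. Their difference of 1.11 was more than 2 SD of a difference for a single pair (0.42). It was 0.72 without background correction, which was not.

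Among H3K9 and H4K20 enzymes, Kmt5c was lowest, with 10.07 on PirBTM and 10.99 on wild type, 1.89-fold lower. Kmt5c makes H4K20 trimethylation at heterochromatin. Kmt5a, the H4K20 monomethylase active in mitosis, had a ratio of 0.47. Its 3 brighter probes lay between 0.34 and 0.47, and the dimmest gave -0.29. The probes of Kmt5b ran from -0.75 to 0.02, with -0.36 for the brightest. Setdb1, an H3K9 methyltransferase that silences endogenous retroviruses, read 8.51 and 8.52, a difference smaller than the measuring SD.

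Of the remaining SET domain proteins, Setd4 was at least 3.42-fold lower by its brightest probe, which read 7.44 on wild type and was not above background on PirBTM (5.62). Its second probe, above background on both arrays, had a ratio of -0.51, so the probes disagree on the size. Setd6, which methylates an NF-kB subunit, had a ratio of -0.46, with -0.51 for its other probe, and Setd5 of -0.08. Setd3, an actin histidine methyltransferase, was highest at 0.15. Those 2 last values lay within the measuring SD of 0.

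Histone methyltransferases outside the naming pattern had a median of -0.64, with 1 of 9 measured genes at least 2-fold lower and 0 higher, beside 9.67% and 12.8% of all genes. Smyd2 was 2.11-fold lower, but under 2-fold with cyclic loess (-0.83), and Smyd3 had a ratio of -0.93; both act on histone and non-histone lysines. Prdm2 and Carm1 were highest, at 0.22 and 0.59. Ezh2, the Polycomb methyltransferase, had a ratio of -0.64, and Dot1l, the enzyme that MLL-AF9 recruits, of -0.24.

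The demethylases were led by Kdm6b, which erases the Polycomb mark and is known as an inflammation-induced gene of macrophages. It read 9.55 on PirBTM and 8.31 on wild type, 2.37-fold higher. Its second probe read 9.27 and 8.32, a ratio of 0.95, and its dimmest probe, with 6.35 and 6.39, gave -0.04. Across alternatives the ratio of Kdm6b ranged from 0.72, the mean of its probes, to a 2.82-fold difference with cyclic loess. Kdm6a, the X-linked paralogue, had a ratio of -0.29 and probes from -0.53 to -0.23. The difference of 1.54 between the paralogues was more than 2 SD of a difference. The macrophage and other markers given above were brighter on the same array as Kdm6b, and their part was not tested.

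Kdm2a, an H3K36 demethylase that binds CpG islands, read 11.76 on PirBTM and 10.97 on wild type, a ratio of 0.79, but its dim second probe gave -0.12. Its paralogue Kdm2b, which brings a Polycomb complex to CpG islands, had a ratio of -0.29, with probes down to -1.21. Kdm7a, an eraser of repressive marks, had a ratio of 0.72 and a second probe at 0.63. Kdm2a and Kdm7a lay under 2-fold as reported, and Kdm2a reached 1.02 with cyclic loess.

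Kdm4a, an eraser of H3K9 and H3K36 methylation, was the lowest demethylase, with 5.77 on PirBTM and 7.28 on wild type, 2.84-fold lower. On PirBTM it lay near the dimmest detected probe (5.67), its other probes were above background on neither array, and it rests on 1 probe. Its ratio was -0.59 in the authors' deposited values. Kdm4b had a ratio of 0.33, with -0.01 for its second probe, and Kdm4c of -0.45. Kdm4b and Kdm4a differed by 1.84, and by 0.92 without background correction.

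Of the H3K4 demethylases of the Kdm5 family, Kdm5a, Kdm5b and Kdm5c had ratios of -0.21, -0.46 and -0.68 by their brightest probes. Kdm5c lay near the detection limit, with 5.85 on PirBTM and 6.53 on wild type. Its ratio was -0.25 without background correction and -0.22 in the authors' deposited values. The second probe of Kdm5a gave -0.76, and its brightest gave 0.09 with cyclic loess. The probes of Kdm5b ran from -0.50 to 0.42. Kdm8 had a ratio of -0.77, Kdm3b of -0.68 and Kdm3a, an H3K9 demethylase, of -0.37 with 3 probes from -0.51 to -0.37. Kdm3b also lay near the detection limit, with 5.85 on PirBTM and 6.53 on wild type. Its ratio was -0.25 without background correction and -0.22 in the authors' deposited values, both above those of Kdm3a (-0.34 in each). Flavin-dependent Kdm1a, the H3K4 demethylase of the CoREST complex, read 9.86 and 9.54, a ratio of 0.31, and Kdm1b 8.58 and 8.53, a ratio of 0.04; these were about the measuring SD or less. Of the 14 JmjC demethylases above background, 10 lay under the median of all genes. At least 2-fold higher was 1 (Kdm6b) and as much lower was 1 (Kdm4a), beside 12.8% and 9.67% of all genes.

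Other JmjC proteins had a median of 0.12, or 0.04 with genes detected on 1 array at their bound. At least 2-fold higher was 1 of 9, beside 12.8% of all genes. Hr, the hairless corepressor, was at least 2.73-fold higher and not above background on wild type, and Riox1 had a ratio of 0.36. Phf8 and Jmjd8 were lowest, at -0.88 and -0.72.

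**Figure D3:**
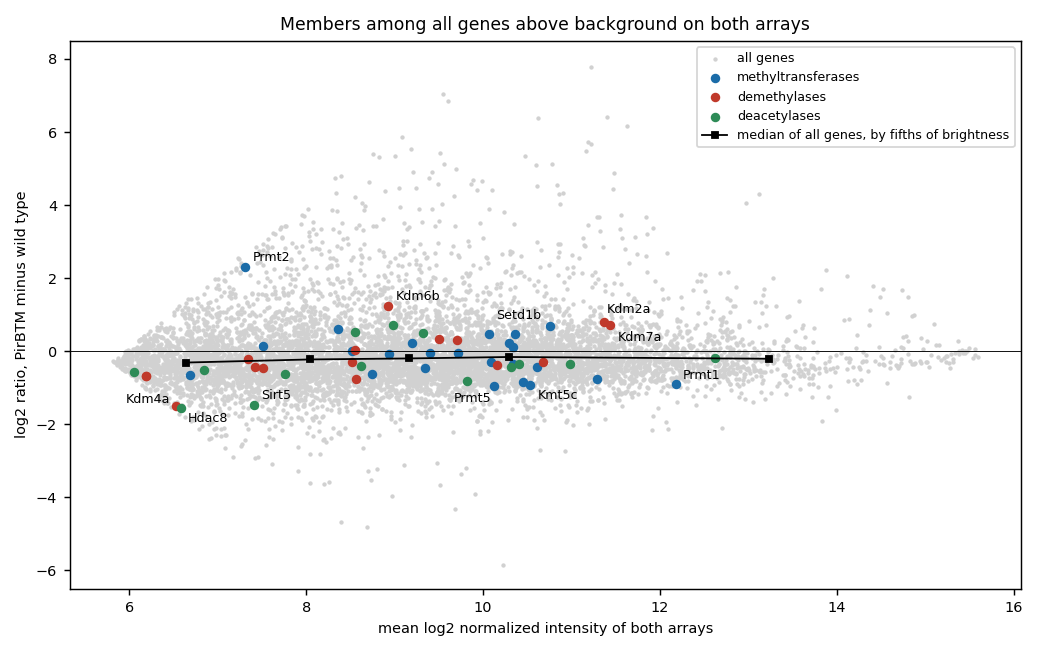
Log2 ratio against mean log2 normalized intensity for all 7858 genes detected on both arrays (grey) and the 54 such members (coloured by class); squares join the median ratios of all genes in 5 equal groups of brightness. Prmt2, Kdm4a, Hdac8 and Sirt5 lie at the dim end, while Kdm6b, Prmt5 and Prmt1 lie at higher intensities.

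The deacetylases were mostly under the median of all genes: 12 of 15 measured. At least 2-fold lower were 2 of the 15, beside 9.67% of all genes, and 0 were as much higher, beside 12.8%. Neither call was made without background correction. Hdac8, a class I enzyme that acts on cohesin, read 5.80 on PirBTM and 7.36 on wild type, 2.94-fold lower by the single probe above background on both arrays. The PirBTM value was again close to the detection limit, and the ratio was -0.62 in the authors' deposited values. Hdac2 and Hdac3, catalytic subunits of the large corepressor complexes, read 10.80 against 11.16 and 10.11 against 10.53, ratios of -0.36 and -0.42, both within the measuring SD of the -0.15 of all genes.

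Class IIa deacetylases, which bind MEF2 factors and have little catalytic activity of their own, differed from each other. Hdac7 read 9.34 on PirBTM and 8.62 on wild type, a ratio of 0.72, from its only probe. Hdac4 had a ratio of 0.53, but its dim second probe gave -0.34. Hdac5 read 10.23 and 10.58, a ratio of -0.35, with 3 probes from -0.91 to -0.35. Hdac7 and Hdac5, the highest and lowest of these 3 genes, differed by 1.07, more than 2 SD of a difference for a single pair.

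Of classes IIb and IV, Hdac10 had a ratio of -0.51, and Hdac6, the tubulin deacetylase, read 6.63 on wild type and was not above background on PirBTM, which gave at least 1.94-fold lower.

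Among the sirtuins, 6 of 7 lay under the median of all genes, though Sirt7 lay above that of genes above background on both arrays (-0.22). Sirt5, a mitochondrial desuccinylase, read 6.68 on PirBTM and 8.14 on wild type, 2.75-fold lower, and its second probe read 6.21 and 7.57, 2.57-fold lower. Both probes agreed within the measuring SD, and the ratio was -0.82 in the authors' deposited values. Sirt3, the main mitochondrial deacetylase, read 9.41 and 10.23, a ratio of -0.82, and Sirt4, also mitochondrial, 7.46 and 8.07, a ratio of -0.61. Of the nuclear and cytosolic members, Sirt1 was highest, with 9.57 and 9.07, a ratio of 0.50, and Sirt7, Sirt2 and Sirt6 had -0.17, -0.40 and -0.56. Sirt6 lay near the detection limit, with 5.78 on PirBTM and 6.34 on wild type. Its ratio was -0.20 without background correction and -0.17 in the authors' deposited values. Sirt7 changed sign with cyclic loess, to 0.06, and was at -0.59 with median scaling.

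Subunits of the deacetylase complexes lay on the other side of the all-gene median from most deacetylases: the median of 28 measured genes was 0.22, 8 were under the all-gene median, and 3 were at least 2-fold higher and 0 lower, beside 12.8% and 9.67% of all genes. These were Chd3, Mta3 and Mbd2. Chd3, a remodelling ATPase of the NuRD complex, read 8.17 on PirBTM and 6.61 on wild type, 2.94-fold higher, Mta3 was 2.62-fold higher and Mbd2, a reader of methylated DNA, at least 2.33-fold higher and not above background on wild type. Mbd3, the alternative to Mbd2, and Rbbp4 were lowest, with ratios of -0.92 and -0.80. Other NuRD subunits were in between: the ATPase Chd4 had a ratio of 0.37, Mta1 of 0.20 and Mta2 of 0.05, and Rbbp7 was at -0.73. Lymphocyte and macrophage markers were brighter on the same array, and their part in these values was not tested.

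Acetyltransferases, which add the marks that deacetylases remove, had a median of -0.22 over 10 measured genes. Of these, 0 were at least 2-fold higher or lower, beside 12.8% and 9.67% of all genes. Ep300 and Kat2b were highest, at 0.71 and 0.30, and Kat5 and Naa40 lowest, at -0.53 and -0.43. Readers of acetyl and methyl lysine had a median of -0.16 over 13 genes, with 0 past 2-fold, beside the same shares of all genes. L3mbtl3 and Brd2 had ratios of 0.45 and 0.40, and Cbx5 and Brd9 of -0.84 and -0.80.

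**Figure D4:**
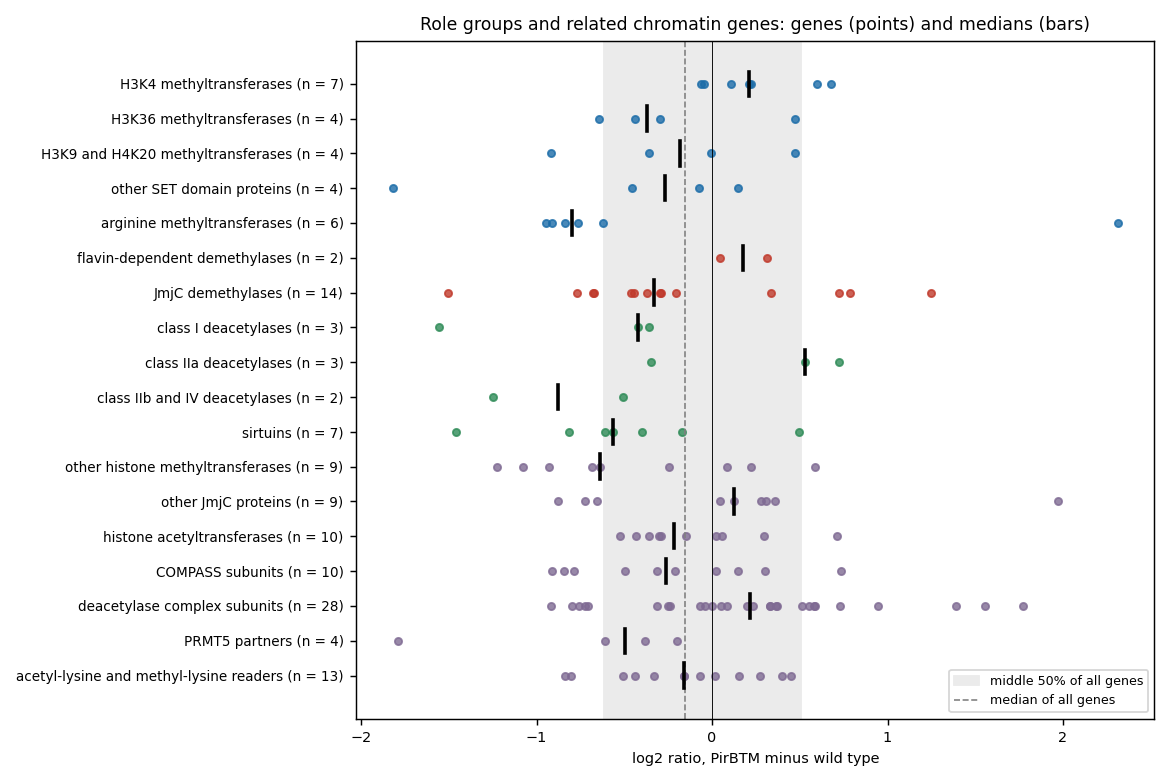
Log2 ratio of every gene above background on at least 1 array (points) and the median (bar) for each role group of members and each list of related chromatin genes, over the middle 50% of all genes (grey band) and their median (dashed). H3K4 methyltransferases lie to the right of the median of all genes. To its left lie 5 of 6 arginine methyltransferases among the members and all 4 PRMT5 partners.

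Members were next compared with their nearest paralogues, in 12 subfamilies chosen after values had been seen. In 6 of them the highest and lowest gene differed by more than 2 SD of a difference: the Nsd, Kdm2, Kdm4, Kdm6, class I and class IIa Hdac groups. That SD is the measuring error alone, for a single pair of genes fixed in advance. The highest and lowest of 3 genes, as in the Nsd, Kdm4, class I and class IIa Hdac groups, pass it more easily. The ratios of all genes are themselves spread widely, so the count is no sign that paralogues differ more than other genes. Without background correction, and with the same SD, 4 of the 6 differences were over 2 SD. Those of the class I Hdac and Nsd groups were 0.34 and 0.72. The others, Kdm1, Kdm3, Kdm5, Setd1, Kmt2c with Kmt2d and Kmt5b with Kmt5c, differed by 0.17 to 0.72. Without background correction the Kdm5 difference of 0.47 fell to 0.13. The Kdm3 difference of 0.31 became -0.09, which reversed the order of the genes. In 26 members a second probe could be read on each array. Its sign was that of the brightest probe in 20 of them and opposite in 6, and in 21 the ratios were within 0.5. Members whose probes differed in sign and by over 0.5 were Hdac4, Kdm2a, Kdm5b, Kdm6b, Kmt5a and Kmt5b.

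The 2-fold calls depended on background correction, as the counts above show. Among the 46 members at least 1 log2 unit over the lowest value above background on both arrays, an alternative chosen after the data had been seen, 1 was at least 2-fold higher (Kdm6b) and 1 lower (Sirt5), beside 8.62% and 8.88% of all such genes.

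**Figure D5:**
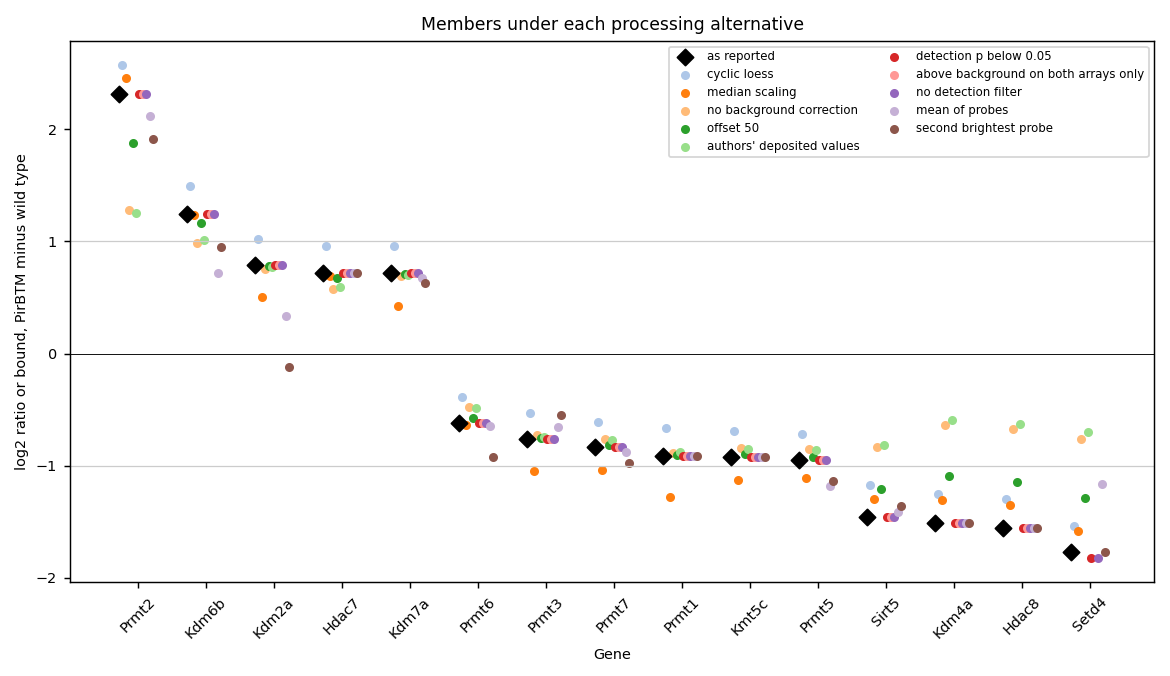
Log2 ratio, or bound where only 1 array detected the gene, of 15 members as reported (diamonds) and under 10 processing alternatives (circles). The 5 lower PRMT genes stay below 0 throughout, though alternatives that change only the detection filter could not move them. Prmt2, Sirt5, Hdac8, Kdm4a and Setd4 move more than 0.5 towards 0 without background correction, and Kdm2a crosses 0 with its second probe.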

How the data were processed

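The authors deposited, per the file headers, linear bead intensities and p-values of detection for 45281 probes of both arrays, neither background corrected nor normalized between arrays by their values (medians of 161.3 and 148.2), and a second table of normalized intensities. The scanner and its software are not named by the labels or headers. By the labels, both arrays are positions of 1 chip, so position and genotype cannot be told apart.

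Background was corrected with limma 3.58.1 in R 4.3.3 (nec, offset 16, with negative controls inferred through detection p), values were quantile normalized and log2 transformed, and the steps were tested on simulated data. The detection limit was a p-value under 0.01, which held for 16392 on PirBTM and 15137 on wild type. A gene was read from its brightest probe. The platform annotation named 1 gene for 34885 probes, several for 18 and none for 10378; 34807 matched the RefSeq table of GRCm38.p6 by gene identifier, with 0 symbols changed. For a gene above background on 1 array only, the fold is a lower bound, taken against its dim value or the dimmest detected probe there (5.67 on PirBTM, 5.95 on wild type), whichever was higher.

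Named are members at least 2-fold different, the highest and lowest of each role, members whose probes disagree, members above background on neither array and the 2 highest and 2 lowest of related lists; other genes are examples picked with values in view, as were the subfamilies and the setting well clear of background (at least 1 log2 unit over the dimmest detected probe). The members, lists and alternatives were chosen with earlier results of these data known. No test was possible with 1 array per group.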

Additional observations from a re-analysis of the deposited data

How the results depend on the processing

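No paired analysis was possible because each group had 1 array, and leaving out a replicate was not possible either. As reported, 2 members were at least 2-fold higher and 4 lower, with medians of -0.35 for all members, -0.08 for methyltransferases, -0.29 for demethylases and -0.42 for deacetylases. The higher count was 1 without background correction, with the mean of probes, with the second brightest probe and among genes well clear of background, 3 with cyclic loess and 7 at 1.5-fold. The lower count was 0 both in the authors' deposited values and when background was left in, 1 among genes well clear of background, 4 with cyclic loess, 9 with median scaling (beside 2 higher) and 17 at 1.5-fold, thresholds passed by 19.6% (higher) and 25.5% (lower) of all genes. The median of all members was -0.13 with cyclic loess, -0.25 when background was left in, -0.23 by the authors' deposited values and -0.25 among genes well clear of background. Among genes above background on both arrays it was -0.32, where that of all genes was -0.22. Cyclic loess gave 0.15 for methyltransferases, -0.063 for demethylases and -0.20 for deacetylases; the mean of probes gave -0.39 for demethylases. Deacetylases were at -0.55 with median scaling, -0.32 when background was left in and -0.31 by the authors' deposited values. Cyclic loess moved the median of genes detected on both arrays by 0.25, from -0.22 to 0.03. Under the 5 settings that change the values themselves (cyclic loess, median scaling, no background correction, offset 50 and the authors' deposited values), 252 of 280 values of 56 members moved by less than the measuring SD and 28 by more, and 0 of those at least 2-fold different turned sign. Signal near background limits Prmt2, Hdac8, Kdm4a, Setd4, Hdac6, Kdm3b, Kdm5c, Sirt6 and Nsd1. The causes were not tested.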
